A study of Mus musculus with 7 samples.

Results

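The centromere-proximal ends are the first assembled 2 Mb of the 19 mouse autosomes, positions 3000001 to 5000000 on each chromosome of the mm9 build. They were chosen by position alone, as 500 bp bins whose start lies in that range, and bins with a mean raw count above 100 reads over the 7 libraries were left out. This kept 75890 bins of the 76000 in the range, out of 5451548 bins in the whole table, or 1.39%. The signal is 5-hydroxymethylcytosine (5hmC), measured as reads of hippocampal DNA captured with an antibody against the mark, in 3 wild-type (WT) libraries and 4 libraries labelled Tet2 CKO, a knockout of the gene for the 5hmC-forming enzyme TET2. All 7 came from C57BL/6 mice that had not been stressed. The labels name no Cre driver, age or sex. They state no separate animal for each library either, so each p-value here reflects variation among libraries that could be technical only. The bin table alone cannot show in which cells the gene was lost, and the reads over Tet2 itself were not used here.

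Mouse autosomes are acrocentric: the centromere sits almost at one tip, embedded in long arrays of satellite repeats, and the assembled sequence begins where these arrays give way to unique DNA. 5hmC is made when TET enzymes oxidise 5-methylcytosine. In brain it is abundant in neurons, where it lies mainly over the bodies of active genes and at enhancers and is scarce in satellite heterochromatin.

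The libraries held 26134505 to 49414761 reads, of which 193561 to 404098 fell in the member bins, or 2.67 to 5.57 reads per covered bin. A covered bin is one with at least 1 read in any of the 7 libraries, and 72602 members were covered. The other 3288, or 4.33%, had no read in any library, against 5.06% in the rest of the same autosomes. Input DNA was not analysed here, so levels are not corrected for differences in how well the sequence maps. In the ratios of the ends to the rest of their chromosomes, Tet2 CKO replicates 2 and 3 stood apart from the other 5 libraries at most ends, and WT replicate 1 lay farthest on the opposite side. Values without these libraries are given beside the comparisons.

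The ends as a whole carried about as many reads per covered bin as the rest of their chromosomes, and the 7 libraries did not agree on the side. For each library and autosome the reads per covered bin of the end were divided by those of the rest of the chromosome, and the log2 ratio was averaged over the 19 autosomes. It was -0.35, -0.043 and -0.030 in WT replicates 1, 2 and 3, and -0.073, 0.30, 0.27 and -0.034 in Tet2 CKO replicates 1 to 4. Thus 5 libraries lay below the rest of the chromosome and Tet2 CKO replicates 2 and 3 lay above it, at folds of 1.24 and 1.20. The mean over the 7 libraries was 0.0062 (SD 0.22, n = 7; two-sided exact permutation of signs, p = 1). Leaving out Tet2 CKO replicates 2 and 3, the mean fell to -0.11, and leaving out WT replicate 1 too gave -0.045. For 5 libraries the smallest p of this exact test is 0.0625.

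The ends were then read against the same ratio in every other stretch of the autosomes. Over all 1208 autosomal windows of 2 Mb the mean log2 ratio to the rest of the chromosome was -0.22 in WT replicate 1 and between -0.055 and -0.039 in the other 6 libraries. The mean of the 19 ends differed from that of all windows by 0.0066 and 0.0096 in WT replicates 2 and 3, and by -0.018 and 0.010 in Tet2 CKO replicates 1 and 4. It differed more in the other 3 libraries, by -0.13 in WT replicate 1 and by 0.35 and 0.31 in Tet2 CKO replicates 2 and 3. Single windows varied widely: their SD over all 1208 was 0.78 in WT replicate 1 and 0.41 and 0.40 in Tet2 CKO replicates 2 and 3. Whether the ends departed from an average window was not tested. When the end was set against the next 20 Mb alone instead of the whole remaining chromosome, its mean over the 19 autosomes was higher in all 7 libraries. The excess was 0.081 on the log2 scale on average (exact permutation of signs, two-sided, p = 0.0156, the smallest that 7 libraries allow). By chromosome, 3 ends were then above in every library and 2 below, and 0 passed (same exact test, Benjamini-Hochberg over 19 autosomes, smallest adjusted p = 0.0594). The highest ends, those of chromosomes 11 and 12 at 0.69 and 0.33 against the whole rest, exceeded every 2 Mb step there from 2000 to 22000 kb. Averaged over the libraries, those steps ran from -0.40 to 0.22 on chromosome 11 and from -0.98 to 0.015 on chromosome 12. The mean without these ends was not computed, so the excess does not show a general rise of the ends.

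The genotypes overlapped. The WT libraries averaged -0.14 ± 0.18 (SD, n = 3) and the Tet2 CKO libraries 0.12 ± 0.20 (SD, n = 4). The difference of 0.26 did not pass a threshold of 0.05 (two-sided exact permutation test, 35 splits, p = 0.257, where the smallest possible p is 0.0286). Libraries with the same replicate number differed by 0.28, 0.35 and 0.30, each higher in Tet2 CKO. Each of these pairs holds WT replicate 1, Tet2 CKO replicate 2 or Tet2 CKO replicate 3, the libraries that stood apart. With 3 pairs an exact test cannot go below p = 0.25. The difference was 0.088 when Tet2 CKO replicates 2 and 3 were left out, and -0.017 when WT replicate 1 was left out too.

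How much of an end gave reads at all also put WT replicate 1 lowest and Tet2 CKO replicates 2 and 3 highest. The share of bins with at least 1 read in a library was lower in the ends than in the rest by 1.61, 0.96 and 0.36 percentage points in WT replicates 1 to 3, and by 0.82 and 0.39 points in Tet2 CKO replicates 1 and 4. It was higher by 5.22 and 3.98 points in Tet2 CKO replicates 2 and 3. The mean difference of 0.72 points did not pass a threshold of 0.05 (exact permutation of signs, two-sided, p = 0.516).

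Single chromosomes differed more than the ends did as a group. In all 7 libraries the end exceeded the rest on chromosomes 7, 11, 12, 16 and 19, and in all 7 it lay below the rest on chromosomes 5 and 17. Each of these 7 ends reached p = 0.0156 and an adjusted p of 0.0424 (exact permutation of signs, two-sided, Benjamini-Hochberg over 19 autosomes). On chromosome 5 Tet2 CKO replicates 2 and 3 were barely below the rest, at -0.034 and -0.00095. Over all bins instead of covered ones, 6 ends passed (same exact test, smallest adjusted p = 0.0495), and 1 end lay below in every library. Among all 1208 autosomal 2 Mb windows, every library lay on the same side of the rest in 19.4%, above it in 4.55% and below it in 14.8%. The ends therefore stood at 5 of 19 above and 2 of 19 below. With any 1 library left out the adjusted p of these ends was 0.0848, which passes no threshold of 0.05, and the counts stayed at 5 above and 2 below.

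**Figure D1:**
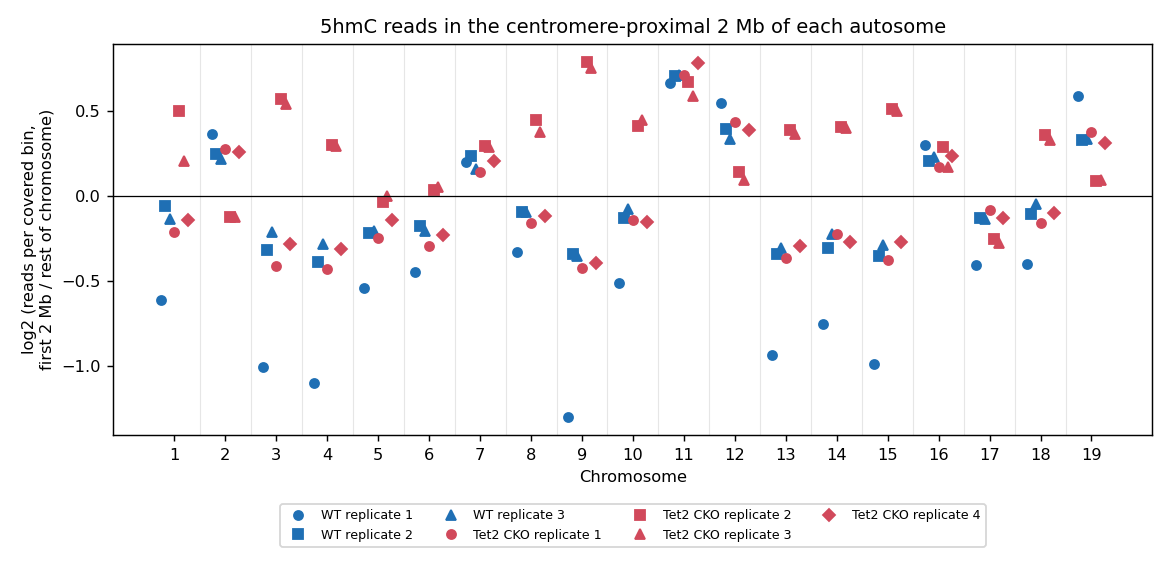
Log2 ratio of reads per covered bin in the centromeric end to the rest of the same chromosome (y axis) for each of the 19 autosomes (x axis), with a point for each library. Chromosome 11 runs from 0.59 to 0.78, while on chromosome 9 the points of Tet2 CKO replicates 2 and 3 lie at 0.79 and 0.75 and those of the other 5 libraries between -1.30 and -0.34.

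Chromosome 11 had the highest end. Its log2 ratio was 0.66, 0.70 and 0.71 in WT replicates 1 to 3 and 0.71, 0.67, 0.59 and 0.78 in Tet2 CKO replicates 1 to 4, a mean of 0.69 or 1.61-fold (SD 0.059, n = 7). All libraries were high, with no order by genotype. Among the 60 windows of 2 Mb on this chromosome the end ranked from 1 to 6 in every library. Most of this came from its first 200 kb, where the log2 ratio ran from 1.92 in WT replicate 1 to 2.96 in Tet2 CKO replicate 2. Leaving out those 200 kb of every chromosome lowered the chromosome 11 mean to 0.20, with 5 of 7 libraries above the rest and Tet2 CKO replicates 2 and 3 below it, at -0.069 and -0.094. Leaving out bins with a mean of at least 20 reads gave 0.24, with all 7 above.

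Those first 200 kb held a dense block of bins with moderately high counts. Of the 341 member bins with a mean of at least 20 reads, 130 were on chromosome 11, and 123 of these lay in its first 100 kb. Such bins made up 3.27% of the chromosome 11 end and 0.26% of the rest of chromosome 11. The bins nearest the bound of 100 reads were here too: the 3 just inside it had means of 99.7, 99.6 and 98.3 reads, and the 3 just outside had 100.1, 100.6 and 101.4. Another 28 bins between positions 3038501 and 3099500 were left out above the bound. Which sequence these bins hold was not analysed here.

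The 5 windows of 10 kb with the highest level in any end all belonged to this block. The window at chromosome 11, positions 3060001 to 3070000, had 37.8, 59.0 and 60.0 CPM (counts scaled to a common library size) in the WT libraries and 52.6, 73.8, 79.8 and 68.3 CPM in the Tet2 CKO libraries. The neighbouring windows starting at 3080001, 3040001, 3030001 and 3070001 followed it. The window from 3040001 to 3050000 was nearly level over the libraries, at 59.7, 58.4 and 52.0 CPM in WT and 55.9, 58.1, 60.2 and 57.4 CPM in Tet2 CKO. An ordinary 10 kb window of the ends had a median of 2.72 to 3.57 CPM in a library. The 28 left-out bins lie in the same stretch, so a window that holds any of them had more reads than its level shows. None of the 5 passed the test between genotypes (edgeR's quasi-likelihood test on 10 kb windows, adjusted p of at least 0.767).

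Chromosomes 12 and 19 came next. On chromosome 12 the log2 ratio was 0.54, 0.40 and 0.33 in WT and 0.44, 0.14, 0.094 and 0.39 in Tet2 CKO, with a mean of 0.33. On chromosome 19 it was 0.59, 0.33 and 0.34 in WT and 0.38, 0.087, 0.094 and 0.31 in Tet2 CKO, with a mean of 0.30. In both, all 7 libraries were above the rest, WT replicate 1 was the highest and Tet2 CKO replicates 2 and 3 the lowest. In their first 200 kb the libraries lay on both sides of the rest. On chromosome 12 the step was at 0.29 and 0.077 in Tet2 CKO replicates 2 and 3 and between -1.31 and -0.72 in the other 5. On chromosome 19 it was at 0.97 and 0.84 in those 2 libraries and between -1.54 and -0.46 in the other 5. Without that step chromosome 12 stood at 0.39 and chromosome 19 at 0.32. Chromosome 19 then had 5 of 7 libraries above the rest.

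Over all 7 libraries the lowest mean ratios were those of chromosomes 4, 13 and 17. Chromosome 4 had log2 ratios of -1.10, -0.39 and -0.28 in WT and -0.43, 0.30, 0.29 and -0.31 in Tet2 CKO, with a mean of -0.27. Chromosome 13 had -0.93, -0.34 and -0.30 in WT and -0.36, 0.39, 0.37 and -0.29 in Tet2 CKO, with a mean of -0.21. On both, Tet2 CKO replicates 2 and 3 were above the rest and the other 5 libraries below it. Chromosome 17 was low in every library, at -0.40, -0.13 and -0.13 in WT and -0.079, -0.25, -0.28 and -0.13 in Tet2 CKO (mean -0.20). Which ends were lowest depended on the libraries. Without WT replicate 1 the means were -0.13, -0.090 and -0.17 on chromosomes 4, 13 and 17. Chromosome 5 then lay below chromosomes 4 and 13. Without Tet2 CKO replicates 2 and 3 the means of chromosomes 4, 13 and 17 were -0.50, -0.45 and -0.17, and chromosome 9 lay below all of them. The means of the 13 autosomes not named here as highest or lowest ran from -0.197 on chromosome 5 to 0.23 on chromosome 16.

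The order of protein-coding genes along the named chromosomes, taken from the RefSeq gene table of the later build GRCm38.p6 and without coordinates, shows which genes lie nearest the centromere. The chromosome 11 end begins with Sfi1, a centrosome protein, followed by Gm51877 and Eif4enif1, which carries the cap-binding translation factor into the nucleus. Chromosome 12 begins with Rab10, a small GTPase of vesicle transport, Kif3c, a kinesin motor of neurons, and Asxl2, a chromatin regulator. Chromosome 19 begins with the helicase gene Ighmbp2, the mitochondrial ribosomal gene Mrpl21 and Cpt1a, which admits fatty acids to mitochondria. Chromosome 4 begins with Vmn1r2 and Vmn1r3, pheromone receptor genes of the vomeronasal organ, and Gm52720. Chromosome 13 begins with Gdi2, a recycling factor for Rab GTPases, Tasor2 and Asb13, and chromosome 17 with Scaf8, Tiam2, an activator of the GTPase Rac, and LOC101056296. No read count was assigned to a gene.

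Most ends lay above or below the rest depending on the library. On 11 of the 19 chromosomes Tet2 CKO replicates 2 and 3 lay above the rest while the other 5 libraries lay below it, a pattern that 34.7% of all autosomal 2 Mb windows showed. The opposite pattern was seen at 1 end, that of chromosome 2, and in 31.9% of all windows. The clearest case was chromosome 9, at -1.30, -0.34 and -0.35 in WT and -0.42, 0.79, 0.75 and -0.39 in Tet2 CKO. Among the 61 windows of that chromosome its end ranked first in Tet2 CKO replicates 2 and 3, and from 52 to 57 in the other 5. WT replicate 1 was the library farthest from 0 at 16 of the 19 ends. How often this held in all windows was not counted. Over all 1208 autosomal windows of 2 Mb this library also varied most, with an SD of 0.78, against 0.30 to 0.41 in the others.

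Across the 19 ends the profile of ratios was almost the same within each set of libraries. Pearson's r lay between 0.941 and 0.992 for any pair of the 3 WT libraries and Tet2 CKO replicates 1 and 4, and was 0.964 between Tet2 CKO replicates 2 and 3. Between the sets it ran from -0.407 to -0.107. These are descriptions over 19 chromosomes, whose ends share libraries and depth. Per chromosome, the Tet2 CKO mean was the higher at 14 ends and the lower at 5, at 0 ends did the genotypes separate, and no adjusted p was under 0.388 (two-sided exact permutation test, 35 splits). The same counts of this ratio were not made over all windows. With 35 splits the smallest p is 0.0286, so after Benjamini-Hochberg adjustment over 19 autosomes a single end could not pass.

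**Figure D2:**
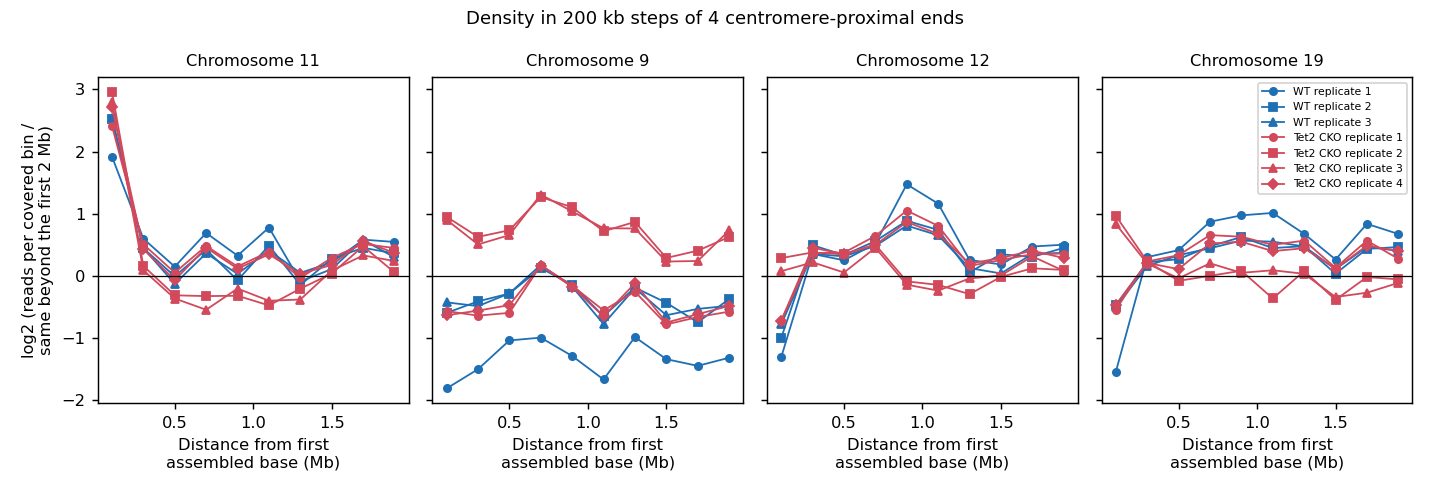
Log2 ratio of each 200 kb step to the rest of its chromosome (y axis) against distance from the first assembled base (x axis, Mb) for chromosomes 11, 9, 12 and 19, with a line for each library. On chromosome 11 all lines start between 1.92 and 2.96, while on chromosome 9 only those of Tet2 CKO replicates 2 and 3 start above 0, at 0.95 and 0.90.

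Within the 2 Mb ends the libraries were farthest apart at the very tip. In the first 200 kb the log2 ratio, averaged over the 19 chromosomes, was -0.80, -0.16 and -0.10 in WT replicates 1 to 3 and -0.19, 0.65, 0.59 and -0.064 in Tet2 CKO replicates 1 to 4. In the last step, 1800 to 2000 kb from the start, it was -0.14, 0.12 and 0.087 in WT and 0.013, 0.17, 0.13 and 0.080 in Tet2 CKO. The spread between libraries was thus widest at the tip among these 10 steps and narrowest in the last. Beyond the ends it did not keep narrowing: at 12000 to 14000 kb the libraries ran from -0.79 in WT replicate 1 to 0.30 in Tet2 CKO replicate 2. Bins with no read in any library fell from 5.72% of the first step to 3.04% of the last. Farther along they made up 5.35% at 2000 to 4000 kb and 8.73% at 16000 to 18000 kb.

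A test of distance gave no common slope. The log2 ratio of the first to the second megabase was -0.13, -0.050 and -0.017 in WT and -0.029, 0.15, 0.13 and -0.013 in Tet2 CKO. Its mean was 0.0056 (two-sided exact permutation of signs, p = 0.938), or -0.047 when Tet2 CKO replicates 2 and 3 were left out. The genotypes differed by 0.12, which did not pass a threshold of 0.05 (two-sided exact permutation test, 35 splits, p = 0.143). That difference was 0.044 when Tet2 CKO replicates 2 and 3 were left out, and 0.013 when WT replicate 1 was left out too. Chromosome 11 was steepest, with a first megabase above the second in all 7 libraries and a mean of 0.78. Chromosomes 9 and 13 also had it above in all 7, at means of 0.25 and 0.29, and chromosomes 4, 5 and 15 had it below in all 7, at -0.19, -0.19 and -0.15. On chromosome 16 the mean of -0.43 covered values from -1.39 in WT replicate 1 to 0.58 in Tet2 CKO replicate 2.

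**Figure D3:**
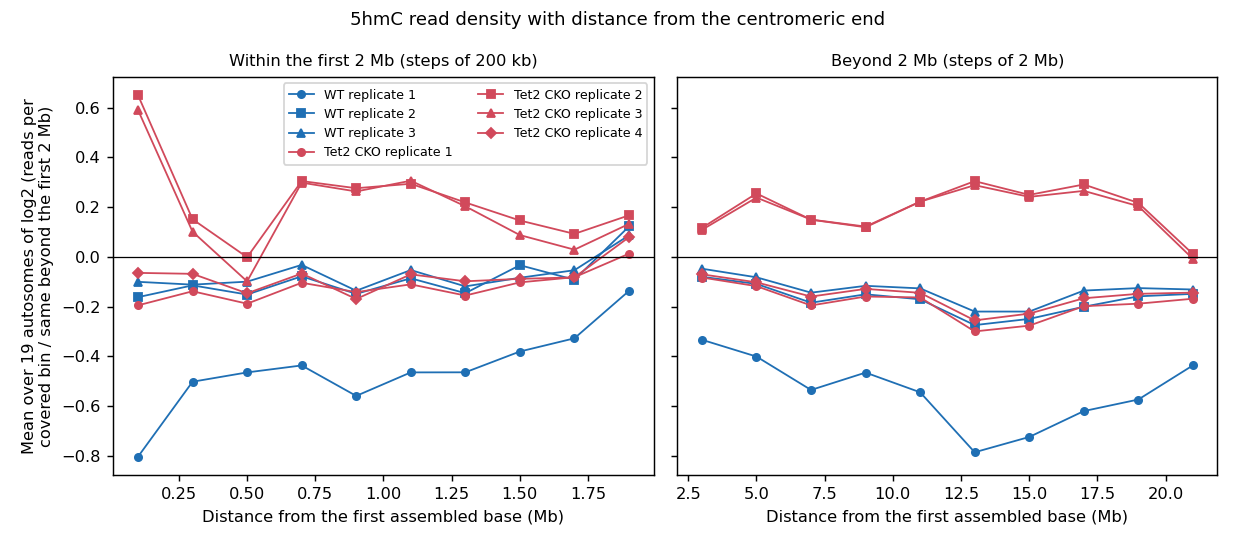
Log2 ratio to the rest of the chromosome, averaged over 19 autosomes (y axis), against distance from the first assembled base (x axis, Mb), with a line for each library, in steps of 200 kb within the ends and of 2 Mb beyond them. The lines are farthest apart within the 2 Mb ends in the first 200 kb, from -0.80 in WT replicate 1 to 0.65 in Tet2 CKO replicate 2, and closest at 1800 to 2000 kb, from -0.14 to 0.17.

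The opposite end of each chromosome, its last 2 Mb toward the telomere, was measured in the same way. The centromeric end was the higher of the 2 in 6 of 7 libraries, with log2 ratios of -0.070, 0.040 and 0.022 in WT and 0.0097, 0.29, 0.28 and 0.032 in Tet2 CKO. The mean of 0.086 did not pass a threshold of 0.05 (exact permutation of signs, two-sided, p = 0.188). Leaving out Tet2 CKO replicates 2 and 3 brought it down to 0.0067, with 4 of 5 libraries above 0 (same exact test, p = 0.75), and leaving out WT replicate 1 too gave 0.026 (p = 0.125, the smallest that 4 libraries allow in this exact test). Leaving out WT replicate 1 alone gave 0.11 (p = 0.0312 by the same exact test, the smallest that 6 libraries allow). Ends of 1 Mb gave 0.10 (exact p = 0.0156), and with ends of 5 Mb the sign turned, to -0.071. The centromeric end exceeded the telomeric end in all 7 libraries on chromosomes 8, 16 and 19, with means of 0.22, 0.37 and 0.66, and lay below it in all 7 on chromosomes 3 and 14, with means of -0.18 and -0.24.

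**Figure D4:**
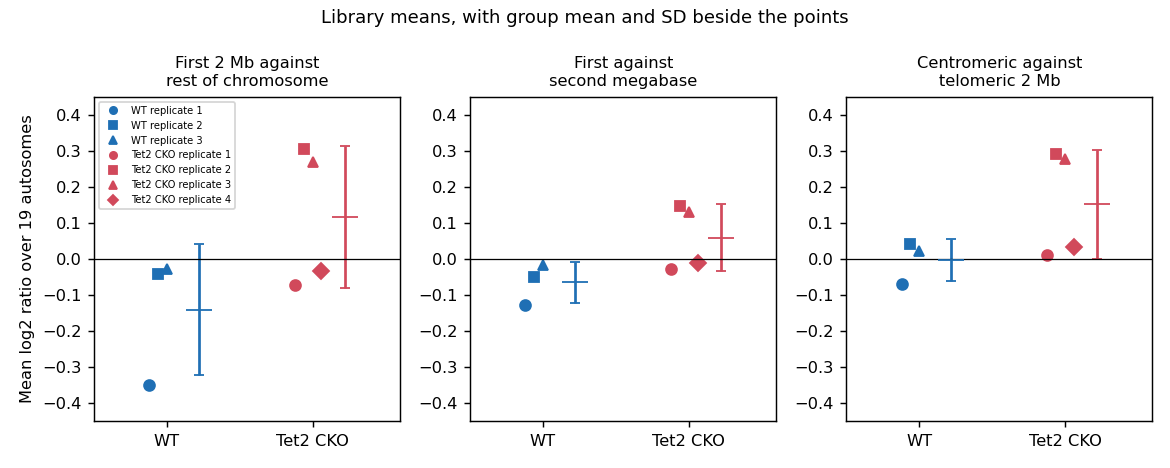
Mean log2 ratio over the 19 autosomes (y axes) for each library, by genotype, with the group mean and SD beside the points: first 2 Mb against the rest of the chromosome, first against second megabase, and centromeric against telomeric 2 Mb. In all 3 panels Tet2 CKO replicates 2 and 3 lie highest, at 0.30 and 0.27 in the first, and WT replicate 1 lies lowest, at -0.35 in the first.

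Bins with very high counts were few and lay in the ends of 5 chromosomes, within 373 kb of the first assembled base. The 110 that were left out comprised 77 on chromosome 9, 28 on chromosome 11, 2 each on chromosomes 12 and 13 and 1 on chromosome 18. The 77 on chromosome 9 fill positions 3000001 to 3038500 without a gap and took from 6.82% of all reads in WT replicate 1 to 17.2% in Tet2 CKO replicate 3. The 2 on chromosome 12, positions 3109501 to 3110500, took 2.50% to 5.68%. The step down was abrupt: the 10 kb next to the chromosome 9 block held 15, 36 and 52 reads in WT and 44, 4, 18 and 32 reads in Tet2 CKO. Keeping all high-count bins, in the ends and in the rest alike, took the log2 ratio of the chromosome 12 end from 0.33 to 7.13 and that of chromosome 9 from -0.18 to 7.21. The chromosome 2 end, which has no such bin, went from 0.16 to -3.38. The mean over all ends was then 0.58 (exact permutation of signs, two-sided, p = 0.0156). The longest runs without any read were 49.5 kb each, on chromosome 14 at 3382001 to 3431500 and on chromosome 16 at 3182001 to 3231500.

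Between genotypes, no end passed the threshold in a count test. Reads were summed in 1301 windows of 2 Mb over the whole genome, so that each autosomal end was 1 window, and were tested with edgeR's quasi-likelihood test with Benjamini-Hochberg adjustment. Of the 19 ends 0 were called, and the background was 0% of all windows. At an unadjusted p under 0.05 there were again 0 ends, against a background of 1.69% higher and 0% lower in Tet2 CKO. With DESeq2's Wald test 0 ends were called, and at an unadjusted p under 0.05 there were 6 higher and 0 lower, against 27.3% and 7.23% of all windows. The median log2 fold change of the 19 ends was 0.15, against 0.0085 for all windows, and 12 of 19 were above 0, against 50.2%. With library size alone as the scale 0 ends passed an unadjusted p of 0.05 in edgeR, against 1.84% of all windows higher and 0% lower. In no end did every Tet2 CKO library lie on one side of every WT library, which happened in 3.15% of all windows above and 2.23% below.

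The 2 ends with the smallest p in each direction show what this rests on. The chromosome 14 end had 560 ± 94.6 CPM (SD, n = 3) in WT and 814 ± 221 CPM (SD, n = 4) in Tet2 CKO, a log2 fold change of 0.54 (SE 0.23, edgeR adjusted p = 0.209). The chromosome 15 end followed at 0.52. In the other direction the chromosome 19 end had 1224 ± 273 CPM (SD, n = 3) in WT and 908 ± 208 CPM (SD, n = 4) in Tet2 CKO, a log2 fold change of -0.43, and chromosome 2 followed at -0.33. Without WT replicate 1 and Tet2 CKO replicates 2 and 3 the values for chromosomes 15, 19 and 2 changed sign, to -0.0033, 0.026 and 0.039, and that for chromosome 14 was 0.021. In that fit 0 ends were higher and 1, that of chromosome 1, was lower at an unadjusted p under 0.05 in edgeR, against 1.77% and 2.15% of all windows. Leaving out Tet2 CKO replicates 2 and 3 alone gave 0 and 0 ends, against 0% and 0.0769%.

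**Figure D5:**
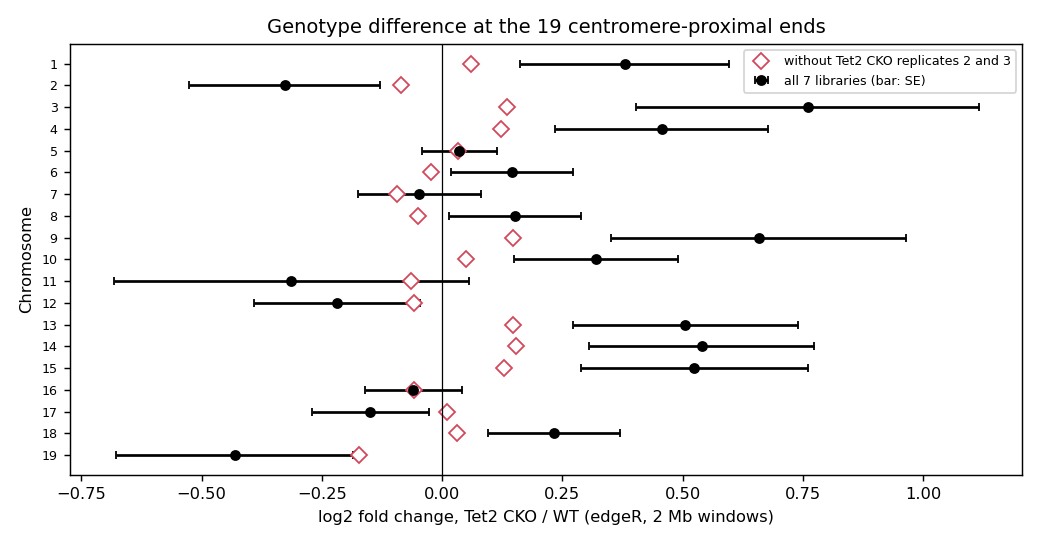
Log2 fold change of Tet2 CKO against WT (x axis) for the 2 Mb end of each of the 19 autosomes, from edgeR with all 7 libraries (filled points, bars are the SE) and without Tet2 CKO replicates 2 and 3 (open points). The filled points run from -0.43 on chromosome 19 to 0.76 on chromosome 3, and the open points from -0.17 to 0.15.

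The replicate numbers changed the calls. With the number fitted as a block, 15 ends passed the threshold in edgeR. They were 10 higher in Tet2 CKO, on chromosomes 1, 3, 4, 6, 9, 10, 13, 14, 15 and 18, against a background of 42.9% of all windows, and 5 lower, on chromosomes 2, 11, 12, 17 and 19, against 40.3%. Because Tet2 CKO replicate 4 has no partner, this fit rests on the 3 numbered pairs, which set Tet2 CKO replicates 2 and 3 against WT replicates 2 and 3. Most windows of the genome passed in the same fit.

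In windows of 10 kb the ends leaned toward higher counts in Tet2 CKO, again with no call. Of 3797 such windows with member bins, 3778 had a mean of at least 10 reads and were tested among 253968. In edgeR 0 were called (background 0%). At an unadjusted p under 0.05, 459 were higher in Tet2 CKO, or 12.1% against a background of 9.62%, and 92 were lower, or 2.44% against 3.92%. The median log2 fold change was 0.20 in the ends and 0.011 in all windows, and 2261 windows of the ends were above 0, or 59.8% against 50.5%. Every Tet2 CKO library exceeded every WT library in 230 windows, 6.09% against 4.81%, and lay below in 149, 3.94% against 5.03%. Without Tet2 CKO replicates 2 and 3 the ends held 78 higher (background 1.69%) and 58 lower windows (background 1.72%) at an unadjusted p under 0.05, and the median was 0.0083, against -0.028 in all windows. Leaving out WT replicate 1 too, there were 98 higher (background 2.36%) and 94 lower windows (background 2.25%).

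The lean was uneven over chromosomes. The chromosome 3 end had 61 higher and 0 lower windows at an unadjusted p under 0.05, with a median log2 fold change of 0.92, and that of chromosome 9 had 48 and 2, with a median of 0.71. The ends of chromosomes 2 and 19 went the other way, with 5 higher and 12 lower and with 7 higher and 18 lower windows, at medians of -0.39 and -0.33. With scaling by library size only, the ends held 301 higher and 83 lower windows, against backgrounds of 5.75% and 3.31%.

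Other models called windows within the ends. Blocking on the replicate number, edgeR called 847, of which 646 were higher in Tet2 CKO, or 17.1% against a background of 12.7%, and 201 lower, or 5.32% against 9.9%. DESeq2 with its default trend called 105 higher and 1 lower of 304 windows that kept an adjusted p, against 29.4% and 1.16%. With a local dispersion trend, added after the data were seen, DESeq2 called 4 higher and 0 lower of 3678, against 0.0885% and 0.0115%.

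The 3 windows with the smallest p among those higher in Tet2 CKO held few reads. At chromosome 12, positions 3140001 to 3150000, WT libraries had 11, 6 and 13 reads and Tet2 CKO libraries 36, 54, 39 and 25, a log2 fold change of 2.57 (SE 0.57, edgeR adjusted p = 0.368). At chromosome 13, positions 4170001 to 4180000, the reads were 23, 8 and 17 in WT and 29, 41, 60 and 43 in Tet2 CKO, a log2 fold change of 2.10. At chromosome 4, positions 3020001 to 3030000, they were 8, 13 and 16 in WT and 23, 48, 44 and 46 in Tet2 CKO, a log2 fold change of 2.20. In all 3 windows every Tet2 CKO library exceeded every WT library in raw reads. All 3 passed with the replicate block (edgeR adjusted p between 0.00605 and 0.0087) and with DESeq2's local trend (adjusted p between 0.0216 and 0.0366). Leaving out Tet2 CKO replicates 2 and 3 gave log2 fold changes of 1.94, 1.54 and 1.67, and leaving out WT replicate 1 too gave 1.72, 1.54 and 1.24, each at an edgeR adjusted p of 1.00.

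Of the 3 windows at the other extreme, those on chromosomes 12 and 19 were richer, at means of 5.58 and 4.17 CPM over the libraries. The chromosome 2 window was not, at 2.30 CPM, beside 2.08 to 2.39 CPM in the 3 windows above. At chromosome 12, positions 3360001 to 3370000, there were 295, 111 and 139 reads in WT and 58, 16, 26 and 61 in Tet2 CKO, a log2 fold change of -1.60. At chromosome 19, positions 4910001 to 4920000, there were 297, 66 and 71 reads in WT and 48, 16, 17 and 44 in Tet2 CKO, a log2 fold change of -1.50. At chromosome 2, positions 3240001 to 3250000, there were 66, 68 and 60 reads in WT and 18, 9, 14 and 27 in Tet2 CKO, a log2 fold change of -1.48. The Tet2 CKO libraries were all below the WT libraries in each of the 3, and the edgeR adjusted p was 0.368 for all 3. With the replicate block it lay between 0.00624 and 0.0281, and when Tet2 CKO replicates 2 and 3 were left out the log2 fold changes were -1.18, -1.11 and -1.27. The chromosome 19 window, where WT replicate 1 held the most reads, was at -0.96 without that library and at -0.56 without it and Tet2 CKO replicates 2 and 3. The other 2 windows were then at -1.05 on chromosome 12 and -1.51 on chromosome 2.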

How the data were processed

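5hmC was measured by antibody capture and sequencing in 3 WT and 4 Tet2 CKO hippocampus libraries. The table that the authors deposited holds raw counts per 500 bp bin, not normalized. The submitters' processing notes list Bowtie2, HOMER, DESeq2 and the build mm9. Their roles and versions are not given in the sources used here, nor is the treatment of duplicate reads and of reads that match several places.

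The members and lists were chosen with earlier results of these data known. Library values were compared by exact permutation, over all 128 sign changes of the 7 libraries or all 35 splits into 3 and 4. Counts outside the high-count bins were summed in windows of 2 Mb and 10 kb and tested over the whole genome, where the mean was at least 10 reads, with edgeR 4.0.16 in R 4.3.3 (TMM factors, quasi-likelihood test, two-sided, Benjamini-Hochberg adjusted p under 0.05). CPM used the same factors, and the SE was taken from the F statistic. DESeq2 1.42.0 was an alternative. Library values used Python 3.11.15, numpy 2.4.6, pandas 2.3.3 and scipy 1.17.1, and figures matplotlib 3.10.9. The exact tests and the Benjamini-Hochberg adjustment were checked on known answers, and the edgeR test without a block on simulated counts. The edgeR fit with the replicate block and DESeq2 were not checked in this way.

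The regions named are the 3 highest and 3 lowest autosomes by mean ratio, the 5 richest 10 kb windows, the 3 windows with the smallest p in each direction and, with no end called, the 2 ends with the smallest p in each direction. Chromosomes outside this rule, among them chromosome 9, were named after their values were seen. Genes were taken as the first 3 of each named autosome, for their order alone, since the gene table is of another build. No sequence is shown, since no genome of the build mm9 was used here.

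Replicates 1 to 3 of both genotypes share numbers in the labels. In 10 kb windows, libraries with the same number deviated from their group means together, with correlations of 0.550, 0.300 and 0.343 for numbers 1 to 3. All were over 0.1, so an alternative treated the numbers as pairs, while the main tests had no block. The data do not single these pairs out: the correlation was 0.513 between WT replicate 1 and Tet2 CKO replicate 4 and 0.360 between WT replicate 3 and Tet2 CKO replicate 2. A blocked value is printed where the block changes a call. Other alternatives were scaling by DESeq2 size factors or by library size, other widths of the ends, another reference stretch, other bins, and each library left out.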

Additional observations from a re-analysis of the deposited data

How the results depend on the processing

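The mean log2 ratio of the ends to the rest, 0.0062 over 7 libraries, was -0.11 without Tet2 CKO replicates 2 and 3, -0.045 without WT replicate 1 as well, -0.023 without bins of a mean of at least 20 reads, -0.0033 with ends of 1 Mb, -0.023 with ends of 5 Mb, 0.081 against the next 20 Mb and 0.58 with the high-count bins kept. With 1 library left out it ran from -0.044 to 0.066. The genotype difference in this ratio, 0.26, was -0.017 without WT replicate 1 and Tet2 CKO replicates 2 and 3. The first against the second megabase, 0.0056, was -0.047 without Tet2 CKO replicates 2 and 3, -0.027 without WT replicate 1 as well, -0.041 without bins of at least 20 reads, -0.011 over all bins, 0.94 with the high-count bins kept, and from -0.018 to 0.028 with 1 library left out. The centromeric against the telomeric end, 0.086, was 0.0067 without Tet2 CKO replicates 2 and 3, 0.026 without WT replicate 1 as well, 0.10 with ends of 1 Mb, -0.071 with ends of 5 Mb, 0.86 with the high-count bins kept, and from 0.052 to 0.11 with 1 library left out. The difference in covered share, 0.72 percentage points, was -0.83 without Tet2 CKO replicates 2 and 3, -0.63 without WT replicate 1 as well, and from -0.027 to 1.11 with 1 library left out. The cause was not tested.

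The 7 single ends past the threshold became 0 with any 1 library left out, without Tet2 CKO replicates 2 and 3, and without WT replicate 1 as well, where fewer libraries allow no smaller p, and also 0 with ends of 1 Mb, with ends of 5 Mb and against the next 20 Mb. Without Tet2 CKO replicates 2 and 3, 13 of the 19 ends lay below the rest in every library left. With the replicate number as a block, the mean difference within pairs was 0.31 for the end and 0.15 for the first against the second megabase, and these calls did not change. The block raised the ends called in 2 Mb windows from 0 to 15 and the 10 kb windows called from 0 to 847, while DESeq2 called 106 with its default and 4 with a local trend. The log2 fold changes of the ends of chromosomes 15, 19 and 2 were -0.0033, 0.026 and 0.039 without WT replicate 1 and Tet2 CKO replicates 2 and 3. Of the values recomputed for the main comparisons, 112 kept their direction and their side of the threshold, or a count within 1.5 times, 18 changed direction, 6 passed the threshold where the first value had not, and 16 counts moved by more than that. The alternatives without WT replicate 1 and Tet2 CKO replicates 2 and 3, with a local trend and without the first 200 kb were chosen after seeing the data. A 10 kb window of the ends held a median of 37 to 75 reads in a library, which limits what the narrower windows can show. Counting error is the only error such depths describe, since the reads carry no molecular identifiers.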

Other observations

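Taken as whole 2 Mb ends, those of chromosomes 7 and 16 varied least over the libraries. Their log2 ratios to the rest were 0.14 to 0.30 (SD 0.058, n = 7) and 0.17 to 0.30 (SD 0.051, n = 7), beside SDs of 0.059 on chromosome 11 and 0.73 on chromosome 9. Within them the libraries differed. The first against the second megabase ran from -0.77 in WT replicate 1 to 0.33 in Tet2 CKO replicate 3 on chromosome 7. On chromosome 16 it ran from -1.39 in WT replicate 1 to 0.58 in Tet2 CKO replicate 2. The chromosome 11 end had the smallest share of bins without a read among the 19, 0.86%, against 3.00% in the rest of chromosome 11. The chromosome 3 end had the largest share, 7.93%, against 5.27% in the rest of chromosome 3.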
